A study of Mus musculus with 8 samples.

Results

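The 10 genes described here make, conjugate and move bile acids in the hepatocyte or control that work. They are the synthesis enzymes Cyp7a1, Cyp8b1, Cyp27a1 and Hsd3b7, the conjugation enzymes Slc27a5 and Baat, the transporters Slc10a1 and Abcb11, and the nuclear receptors Nr1h4 and Nr0b2. They were taken by name, and every probe whose transcript maps to one of them was read: 12 of the 55681 probes on the array, with 2 probes each for Slc27a5 and Slc10a1 and 1 for each other gene. All 10 genes were among the 20165 features tested, and all 12 probes were well above background on all 8 arrays. Livers came from male C57BL/6 mice, bought at 5 weeks of age, fed freely on normal chow with 4.8% fat (ND) or on chow with 58% fat (HFD, high-fat diet). Feeding lasted 3 or 9 months. This gave 4 groups of 2 animals, and total liver RNA of each animal was labelled with Cy3 and hybridised to its own 1-colour Agilent array. The labels call the animals mouse 1 and mouse 2 of their group, given below as replicates 1 and 2, and a difference between them holds both animal and array variation. A free-text label of ND 3 months replicate 1 calls it a diet-induced steatohepatitis animal, against its other labels, which give the normal diet and were followed.

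Hepatocytes turn cholesterol into bile acids by a classic route, which starts with hydroxylation by CYP7A1, and by an alternative route, which starts with CYP27A1 and CYP7B1. CYP8B1 decides how much cholic acid is made, and the finished acids are joined to taurine or glycine before BSEP, the product of Abcb11, pumps them into the canaliculus; NTCP, the product of Slc10a1, takes returning bile acids up from portal blood. Bile acids activate FXR, the product of Nr1h4, which induces SHP, the product of Nr0b2, and SHP in turn represses Cyp7a1 and Cyp8b1.

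Values are the log2 processed signal of a probe minus the log2 of its array's 75th percentile. A value of 0 is the signal at that percentile, and a difference of 1 is a 2-fold change. The 75th percentile was an intensity between 482 and 596.5 for ND and between 368.4 and 428.2 for 3 of the HFD arrays. It was 185.4 on HFD 9 months replicate 2, where 40.62% of spots were well above background against 43.04% to 54.12% on the others. For the brightest probe of each of the 10 genes, 9-month differences that moved by over 1.5 times without it are given too. So is any difference between diets whose call changed without it. Not every pooled value that moved is given below. With 1 array left out, pooled Cyp7a1 ran from -1.02 to -0.20, Cyp27a1 from -0.49 to -0.09 and Abcb11 from -0.18 to 0.12. Slide 1 carried the 4 ND arrays and slide 2 the 4 HFD arrays, so every difference between diets is also one between slides, and the 2 cannot be told apart. Feeding time went with the row of the slide, 3 months in row 1 and 9 months in row 2. Precision is limited by having 2 arrays in a group.

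After 9 months, Cyp8b1 and Baat were lower on HFD than on ND, 4.62-fold and 3.14-fold. Over both durations Hsd3b7 was lower on HFD, 1.51-fold, on all 4 HFD arrays. By limma with Benjamini-Hochberg adjustment over all 20165 features, called at an adjusted p under 0.05, 0 of the 10 genes passed at 3 months, where 5.18% of all features did (3.67% lower and 1.51% higher). At an unadjusted p under 0.05 there was 1, Hsd3b7, against 26.3% of all features. At 9 months 2 of 10 passed, both lower, where 8.28% of all features passed in either direction, 4.73% lower and 3.56% higher. Over both durations 1 of 10 passed, lower, where 22.1% passed in either direction, 11.8% lower and 10.3% higher, so that share was no larger among these genes than among all features. The median log2 difference between diets over the 10 genes was -0.39 at 3 months, -0.50 at 9 months and -0.47 over both, and over all features it was -0.01, 0.02 and 0. It was below 0 for 9, 8 and 9 of the 10 genes. The values depended on the scaling: at 3 months the median was -0.11 under quantile normalization, -0.02 after normexp background correction and -0.01 in the authors' deposited value table, where 7, 5 and 5 of the 10 genes were below 0. In the same order it was -0.44, -0.35 and -0.39 at 9 months, with 6, 6 and 7 genes below 0, and -0.33, -0.26 and -0.29 over both, with 6, 7 and 7.

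**Figure D1:**
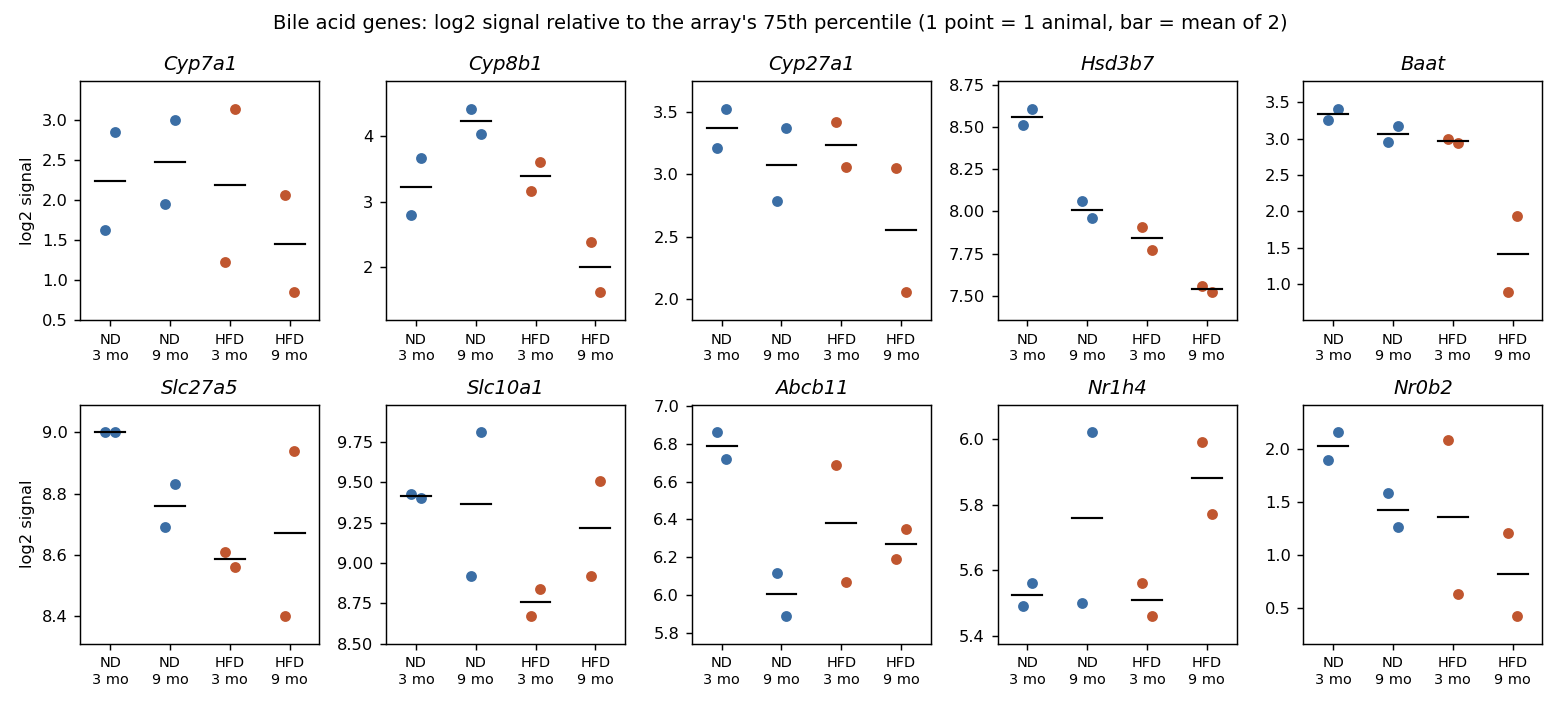
Log2 signal relative to the array's 75th percentile (vertical axis, a separate range for each gene) in the 4 groups of diet and feeding time (horizontal axis). Each point is 1 animal and each bar the mean of 2: Cyp8b1 and Baat are lowest in both HFD 9 months animals, Hsd3b7 is lower in all 4 HFD than in all 4 ND animals, and the 2 points of a Cyp7a1 group lie at least 1.05 apart.

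Cyp7a1, the rate-limiting enzyme of the classic route, gave no difference between diets that exceeded the spread between animals. Its log2 values were 1.62 and 2.85 on ND at 3 months, 1.95 and 3.00 on ND at 9 months, 1.22 and 3.14 on HFD at 3 months, and 2.06 and 0.84 on HFD at 9 months. Every group held a high and a low animal, and the diets overlapped at each time. The 2 animals of a group differed by 1.23, 1.05, 1.92 and 1.22 in that order, which is 2.08-fold to 3.79-fold. The residual SD of Cyp7a1, 0.988, was above that of 96.4% of all features, whose median was 0.285. HFD differed from ND by -0.05 ± 0.80 at 3 months (log2 ± SE, n = 2 animals per group, limma adjusted p = 0.972) and by -1.03 ± 0.80 at 9 months (adjusted p = 0.439). The 95% intervals, -1.99 to 1.88 and -2.96 to 0.91, leave room for large changes either way at 3 months. With 1 array left out the value at 3 months ran from -1.02 without HFD 3 months replicate 2 to 0.91 without HFD 3 months replicate 1. At 9 months it ran from -1.64 without HFD 9 months replicate 1 to -0.42 without HFD 9 months replicate 2.

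Cyp8b1, the hydroxylase needed for cholic acid, moved most between the diets at 9 months. Its log2 values were 2.79 and 3.66 on ND at 3 months, 4.41 and 4.02 on ND at 9 months, 3.16 and 3.60 on HFD at 3 months, and 2.39 and 1.62 on HFD at 9 months. The ND 9 months animals were the highest and the HFD 9 months animals the lowest of the 8, while the 3-month diets overlapped. At 9 months HFD was lower by -2.21 ± 0.40 (95% interval -3.17 to -1.24, limma adjusted p = 0.0283). At 3 months the difference was 0.16 ± 0.40 (adjusted p = 0.828), and over both durations -1.03 ± 0.51 (adjusted p = 0.178), or -0.64 without HFD 9 months replicate 2. The gap at 9 months had parts on both diets: from 3 to 9 months the gene stood 0.99 ± 0.40 higher on ND (adjusted p = 0.303) and changed by -1.38 ± 0.40 on HFD (adjusted p = 0.228), neither past the threshold. The call at 9 months ended without ND 9 months replicate 1 (-2.01, adjusted p = 0.0899), without ND 9 months replicate 2 (-2.40, adjusted p = 0.0913) and without HFD 9 months replicate 2 (-1.82, adjusted p = 0.0594).

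The start of Cyp8b1 is shown because this gene had the largest difference between diets. The window is chr9:121916256-121916555 of build GRCm38.p6, minus strand, from RefSeq, and covers 250 bases before to 50 after the start of the gene. Capitals mark an exact CAAAGTC, the letters of an HNF4A-type motif, 67 bases before the start, and an exact TATAAA, 31 bases before it.
Cyp8b1: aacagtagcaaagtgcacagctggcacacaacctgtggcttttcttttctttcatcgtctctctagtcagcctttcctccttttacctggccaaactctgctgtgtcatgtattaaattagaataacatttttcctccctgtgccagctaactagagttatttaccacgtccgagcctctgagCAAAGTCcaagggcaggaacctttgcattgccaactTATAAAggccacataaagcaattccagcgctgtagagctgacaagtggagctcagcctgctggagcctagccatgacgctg
Among all RefSeq windows of this length, 4.44% of 32851 hold CAAAGTC on either strand and 13.6% hold TATAAA. A match of letters is a description of the sequence and says nothing of binding.

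Cyp27a1, the mitochondrial sterol hydroxylase of the alternative route, had values of 3.21 and 3.53 on ND at 3 months, 2.79 and 3.37 on ND at 9 months, 3.42 and 3.06 on HFD at 3 months, and 3.05 and 2.05 on HFD at 9 months. The diets overlapped at both times, and the lowest value came from HFD 9 months replicate 2. HFD differed from ND by -0.13 ± 0.38 at 3 months and -0.53 ± 0.38 at 9 months (limma adjusted p = 0.859 and 0.407). Without that replicate the 9-month difference was -0.03. The probe of Cyp27a1 is printed on 10 spots of the array, which gives the technical error within an array: the SD between spots was 0.0279 to 0.082.

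Hsd3b7, the dehydrogenase that acts on the sterol ring after the first hydroxylation, varied least between animals. Its values were 8.51 and 8.61 on ND at 3 months, 8.06 and 7.96 on ND at 9 months, 7.91 and 7.77 on HFD at 3 months, and 7.56 and 7.52 on HFD at 9 months. No group overlapped another, and the order from high to low was ND 3 months, ND 9 months, HFD 3 months, HFD 9 months. The residual SD of 0.0724 was above that of only 2.35% of all features. Over both durations HFD was lower by -0.60 ± 0.12 (95% interval -0.89 to -0.31, limma adjusted p = 0.0168). All 4 HFD arrays lay below all 4 ND arrays, as they did for 14% of all features. The differences were -0.72 ± 0.17 at 3 months (adjusted p = 0.0604) and -0.47 ± 0.17 at 9 months (adjusted p = 0.128), and the first passed without either HFD 9 months replicate (-0.72 in both cases, adjusted p = 0.0406). The pooled call rested on the scaling: the difference was -0.34 under quantile normalization (adjusted p = 0.0872), -0.26 after normexp correction (0.128), -0.31 in the authors' deposited value table (0.11) and -0.64 with the 50th percentile (0.0925), each above the threshold, as it was with no filter on dim probes (-0.60, 0.0749). It also ended without ND 3 months replicate 1 (-0.59, adjusted p = 0.0629) or replicate 2 (-0.55, adjusted p = 0.0684).

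The window at the start of Hsd3b7, the other called gene with an entry in the table, is shown for comparison with that of Cyp8b1. It is chr7:127800359-127800658 of build GRCm38.p6, plus strand, from RefSeq.
Hsd3b7: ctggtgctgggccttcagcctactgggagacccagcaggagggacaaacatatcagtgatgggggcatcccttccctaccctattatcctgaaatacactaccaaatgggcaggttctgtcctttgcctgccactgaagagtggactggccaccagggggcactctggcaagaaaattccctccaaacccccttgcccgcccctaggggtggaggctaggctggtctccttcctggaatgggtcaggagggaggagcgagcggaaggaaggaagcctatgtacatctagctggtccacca
It has no capitals, since none of the 5 motifs searched on both strands was in it. These were AGGTCA, the core motif of nuclear receptors, AAGGTCA, which contains it, an inverted repeat of AGGTCA with 1 base between its copies, CAAAGTC and TATAAA. Of the 10 genes 7 have windows in the table, 8 in all. AGGTCA (16.3% of all windows) was in those of Abcb11, 56 bases before the start, of Nr1h4, 214 before, and in 1 of the 2 of Slc10a1, 87 before. TATAAA was 28 bases before the start of Nr0b2 and 128 before the other start of Slc10a1, where CAAAGTC lay 173 before. AAGGTCA (4.72%) and the inverted repeat (3 of 32851 windows) were in none of the 8, and the window of Cyp27a1 held none of the motifs.

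Of the conjugation enzymes, Baat was lower on HFD at 9 months and Slc27a5 was not past the threshold in any comparison of diets. Baat, which conjugates bile acids, had values of 3.26 and 3.41 on ND at 3 months, 2.95 and 3.17 on ND at 9 months, 3.00 and 2.94 on HFD at 3 months, and 0.89 and 1.94 on HFD at 9 months. The 6 animals of the other groups lay between 2.94 and 3.41 and both HFD 9 months animals below them, 1.04 apart from each other. At 9 months HFD was lower by -1.65 ± 0.34 (95% interval -2.47 to -0.83, limma adjusted p = 0.0394). At 3 months the difference was -0.37 ± 0.34 (adjusted p = 0.522), and over both durations -1.01 ± 0.33 (adjusted p = 0.0633). Without HFD 9 months replicate 1, the lowest, the 9-month difference was -1.13 (adjusted p = 0.0302), and without replicate 2 it was -2.17 (adjusted p = 0.0101). The call ended when any of the other 6 arrays was left out: the difference stayed at -1.65 without an array of either 3-month group (adjusted p = 0.0937 without either ND and 0.0639 without either HFD replicate), and was -1.76 and -1.54 without ND 9 months replicate 1 and 2 (adjusted p = 0.0903 and 0.157).

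Slc27a5, the ligase that makes bile acyl-CoA ready for conjugation, had values of 9.00 and 9.00 on ND at 3 months, 8.69 and 8.83 on ND at 9 months, 8.61 and 8.56 on HFD at 3 months, and 8.40 and 8.94 on HFD at 9 months. The HFD 3 months animals were both below the ND 3 months animals, and at 9 months the diets overlapped. The differences were -0.41 ± 0.22 at 3 months, -0.09 ± 0.22 at 9 months and -0.25 ± 0.16 over both (limma adjusted p = 0.28, 0.828 and 0.285). Without HFD 9 months replicate 2 the 9-month difference was -0.36, and the pooled difference of Slc27a5 was -0.39 and passed (adjusted p = 0.0364). Its second probe gave -0.52 ± 0.30, -0.09 ± 0.30 and -0.30 ± 0.21 in the same order. The sign of the pooled value turned under quantile normalization (0.08), after normexp correction (0.21) and in the authors' deposited value table (0.18).

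The transporters gave no call. Slc10a1, the sodium-dependent importer of the sinusoidal membrane, had values of 9.43 and 9.40 on ND at 3 months, 8.92 and 9.81 on ND at 9 months, 8.67 and 8.84 on HFD at 3 months, and 8.92 and 9.51 on HFD at 9 months. Its HFD 3 months animals were the lowest of the 8, and at 9 months the diets overlapped. The differences were -0.65 ± 0.34 at 3 months and -0.15 ± 0.34 at 9 months (limma adjusted p = 0.273 and 0.807), the latter -0.45 without HFD 9 months replicate 2. The second probe of Slc10a1 did not repeat the lower values at 3 months: it read 4.80 and 4.75 on ND and 4.86 and 5.11 on HFD, a difference of 0.21 ± 0.34 (adjusted p = 0.722 over 25801 probes). On that probe the values at 9 months were 4.17 and 4.33 on ND and 4.76 and 3.75 on HFD.

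Abcb11, the canalicular bile salt export pump, had values of 6.86 and 6.72 on ND at 3 months, 6.12 and 5.89 on ND at 9 months, 6.69 and 6.07 on HFD at 3 months, and 6.19 and 6.35 on HFD at 9 months. HFD animals were below ND animals at 3 months and above them at 9 months, without overlap at either time. The differences were -0.41 ± 0.25 and 0.26 ± 0.25 (limma adjusted p = 0.34 and 0.529), and their own difference was 0.67 ± 0.35 (adjusted p = 0.714), so the change of sign did not pass. The 3-month value turned to 0.01 after normexp correction and 0.02 in the authors' deposited value table. There the differences at 3 and 9 months were both above 0. The 3-month value was -0.72 without HFD 3 months replicate 1 and -0.09 without replicate 2. Most of the 0.67 came from ND, where Abcb11 changed by -0.78 ± 0.25 from 3 to 9 months (limma adjusted p = 0.215). On HFD it changed by -0.11 ± 0.25 (limma adjusted p = 0.848). At 3 months both HFD animals were below both ND animals for 5 of the 10 genes, as for 35.4% of all features, and above them for 0, as for 35.6%. At 9 months 4 were lower and 1, Abcb11, was higher without overlap, where 26.1% and 28.5% of all features were.

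Nr1h4, the bile acid receptor FXR, was nearly level. Its values were 5.49 and 5.56 on ND at 3 months, 5.50 and 6.02 on ND at 9 months, 5.56 and 5.46 on HFD at 3 months, and 5.99 and 5.77 on HFD at 9 months. The diets overlapped at both times, and the differences were -0.01 ± 0.22 and 0.13 ± 0.22 (limma adjusted p = 0.972 and 0.748), the latter 0.24 without HFD 9 months replicate 2. The 95% interval over both durations, -0.30 to 0.42, bounds the change on a log2 scale. The array measures Nr1h4 through 1 probe, designed to a single transcript variant.

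Nr0b2, the repressor SHP that FXR induces, had values of 1.90 and 2.16 on ND at 3 months, 1.59 and 1.26 on ND at 9 months, 2.09 and 0.63 on HFD at 3 months, and 1.21 and 0.42 on HFD at 9 months. At 3 months 1 HFD animal was level with ND and the other 2.74-fold below it, and at 9 months both HFD animals were below both ND animals. The differences were -0.67 ± 0.50 at 3 months, -0.61 ± 0.50 at 9 months and -0.64 ± 0.33 over both (limma adjusted p = 0.433, 0.466 and 0.197). With 1 array left out the 3-month value of Nr0b2 ran from -1.40 without HFD 3 months replicate 1 to 0.06 without replicate 2, and the 9-month value from -1.0 without HFD 9 months replicate 1 to -0.22 without replicate 2. The residual SD of Nr0b2, 0.603, was above that of 84.3% of all features. Within a group, the animal with more Cyp7a1 had less Nr0b2 in 2 of the 4 groups and more in the other 2. It had more Cyp8b1 in 3 of the 4.

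**Figure D2:**
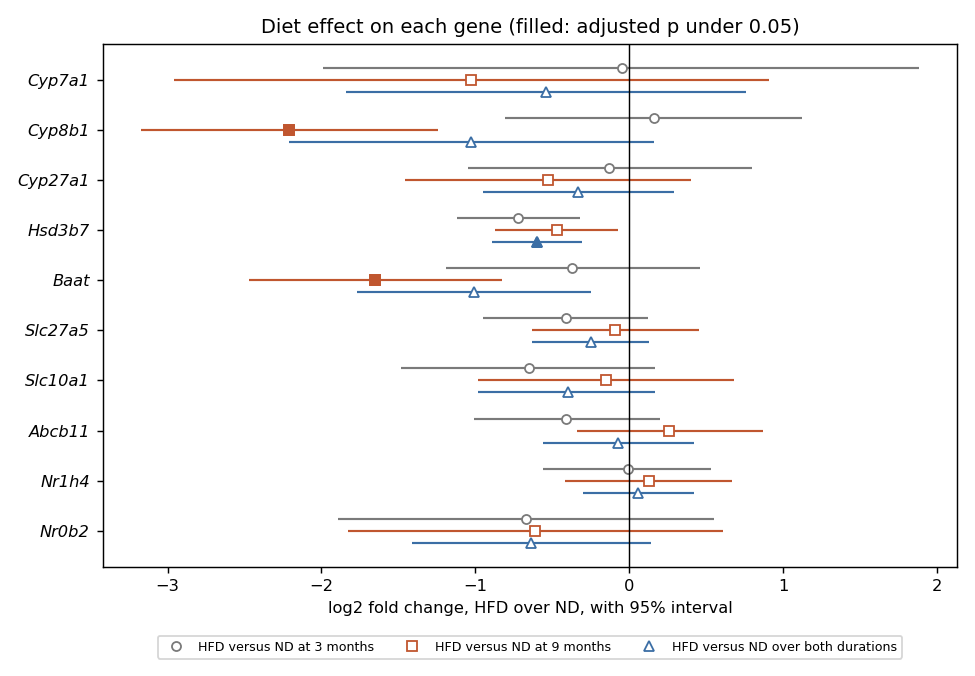
Log2 fold change of HFD over ND (horizontal axis) with its 95% interval for each of the 10 genes (vertical axis), at 3 months, at 9 months and over both durations. Filled symbols passed an adjusted p under 0.05: Cyp8b1 (-2.21) and Baat (-1.65) at 9 months and Hsd3b7 (-0.60) over both, while the intervals of Cyp7a1 are the widest.

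Whether the diet effect differed between the durations was tested as an interaction. By limma it passed for 0 of the 10 genes and for 0% of all 20165 features, of which 1537 (7.62%) had an unadjusted p under 0.05. The diet effect on Cyp8b1 was -2.36 ± 0.56 further down at 9 than at 3 months (95% interval -3.73 to -1.0, limma adjusted p = 0.416). That on Baat was -1.28 ± 0.48 further down (limma adjusted p = 0.628), and both had an unadjusted p under 0.05. Among the other 8 genes the adjusted p ran from 0.714 to 0.992. The call of Cyp8b1 and Baat at 9 months and not at 3 months is therefore not shown to be a difference between the durations at this threshold.

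Between 3 and 9 months of the same diet 0 of the 10 genes passed by limma, on ND, where 1.04% of all features did, and on HFD, where 0.00992% did. At an unadjusted p under 0.05 there were 3 on ND, Cyp8b1 higher and Abcb11 and Hsd3b7 lower, and 2 on HFD, Baat and Cyp8b1, both lower, where 15.9% and 15.5% of all features were. Hsd3b7 changed by -0.55 ± 0.17 on ND (adjusted p = 0.195). On HFD, Baat was -1.56 ± 0.34 lower at 9 months (adjusted p = 0.168). Without HFD 9 months replicate 1 that value of Baat was -1.03 and passed (adjusted p = 0.0381). These comparisons lie within 1 slide each, so the slide does not enter them, though the slide row does.

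**Figure D3:**
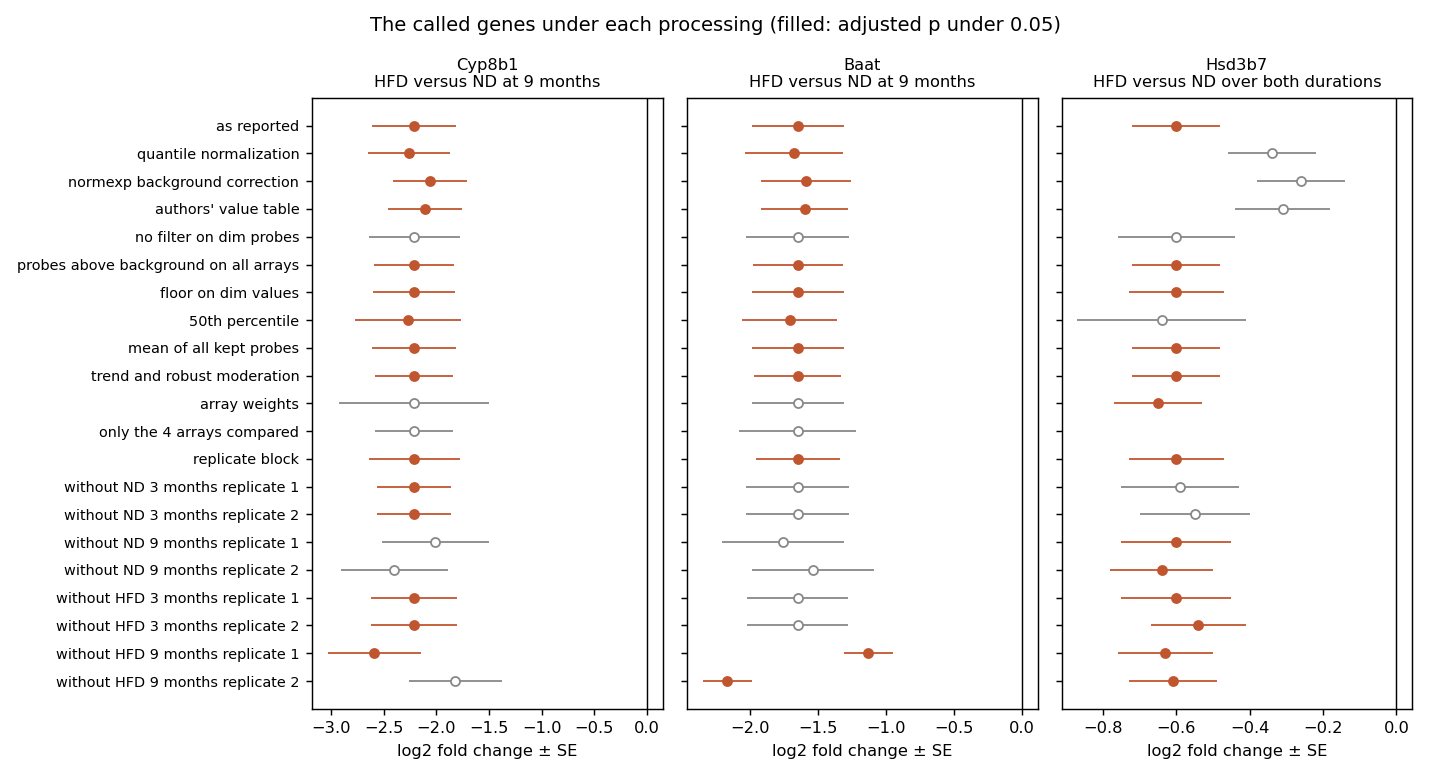
Log2 fold change ± SE of HFD over ND (horizontal axis) for Cyp8b1 and Baat at 9 months and Hsd3b7 over both durations, as reported and under each other processing (vertical axis); filled symbols passed an adjusted p under 0.05. Cyp8b1 runs from -2.59 to -1.82 and Baat from -2.17 to -1.13, while Hsd3b7 is nearest to 0 (-0.26) after normexp correction.

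Other genes of the pathway were read from 4 lists. Of 12 other synthesis enzymes 11 were tested: 1 fell and 0 rose at 3 months, 1 rose and 0 fell at 9 months, and 1 fell and 0 rose over both, with medians of -0.02, -0.12 and -0.02. Of all features 5.18%, 8.28% and 22.1% passed in either direction. Under quantile normalization, normexp correction and in the authors' deposited value table, 2 rose at 9 months and 1 over both. In that order 827, 1282 and 1063 of all 20165 features rose at 9 months, and 2437, 2954 and 2641 over both. Without HFD 9 months replicate 2 the median over both was 0.04, and the counts passing over both changed. Cyp7b1, the oxysterol hydroxylase of the alternative route, was the one that fell as reported here. Its values were 6.57 and 6.68 on ND at 3 months, 5.80 and 6.04 on ND at 9 months, 4.96 and 4.49 on HFD at 3 months, and 4.85 and 5.56 on HFD at 9 months, with all HFD below all ND animals. It was lower by -1.90 ± 0.30 at 3 months and -1.31 ± 0.29 over both durations (limma adjusted p = 0.0271 and 0.0215). At 3 months the call ended without any 1 of the 4 arrays of that time (adjusted p = 0.0528 to 0.212 in those cases). The pooled call of Cyp7b1 ended without either ND 3 months replicate (0.0688 and 0.0698), ND 9 months replicate 2 (0.0504), HFD 3 months replicate 1 (0.056) or HFD 9 months replicate 1 (0.0545), and at 0.052 with no filter on dim probes. Cyp2c70, which makes the muricholic acids of the mouse, rose at 9 months by 2.15 ± 0.31, 4.45-fold (limma adjusted p = 0.0161). Its values were 7.02 and 7.43 on ND at 3 months, 3.54 and 4.40 on ND at 9 months, 6.70 and 6.82 on HFD at 3 months, and 6.07 and 6.18 on HFD at 9 months. The ND 9 months animals stood apart as the lowest, and both HFD groups lay between 6.07 and 6.82. The call of Cyp2c70 held without each array in turn (1.73 to 2.58).

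Of 15 other transporters 14 were tested. At 3 and at 9 months 0 passed, and 2 and 6 had an unadjusted p under 0.05, as 26.3% and 28.7% of all features had. Over both durations 3 rose and 0 fell (median 0.16), where 10.3% of all features rose and 11.8% fell. Under quantile normalization 2 rose, as 2437 of all 20165 features did. Without HFD 9 months replicate 2 the median was 0.19, and the counts passing changed in all 3 comparisons of diets. Slc10a2, the apical sodium-dependent bile acid importer, had values of 1.53 and 1.46 on ND at 3 months, 1.58 and 0.43 on ND at 9 months, 2.84 and 3.01 on HFD at 3 months, and 2.36 and 2.73 on HFD at 9 months. All HFD animals were above all ND animals, by 1.48 ± 0.25, 2.80-fold (limma adjusted p = 0.00864), and the call held without each array in turn. Abcb1a, a multidrug exporter, rose by 1.51 ± 0.33 (adjusted p = 0.0196). It lost its call without either ND 3 months replicate (adjusted p = 0.0604 and 0.0658), ND 9 months replicate 2 (0.0526) or HFD 9 months replicate 1 (0.0509). Slc51b, the beta subunit of the basolateral bile acid exporter, rose by 2.20 ± 0.56 (adjusted p = 0.0311), but was well above background on 5 of the 8 arrays, not on either ND 9 months array nor on HFD 9 months replicate 2. Its difference was 0.99 after normexp correction and 0.81 in the authors' deposited value table, and it kept its call in 2 of 8 cases with 1 array left out (adjusted p up to 0.0908).

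Of 18 other regulators 16 were tested. At 3 months 1 rose, Nr1i3, where 1.51% of all features rose. At 9 months 0 passed, and 4 had an unadjusted p under 0.05, as 28.7% of all features had. Over both durations 3 rose and 4 fell (median 0.05), where 10.3% of all features rose and 11.8% fell. With the 50th percentile 1 rose and 2 fell over both, where 937 of all 20165 features rose and 2223 fell. Under quantile normalization 2 rose and 2 fell, where 2437 and 2211 of all features did. Without HFD 9 months replicate 2 the median over both was -0.01, and the counts passing over both changed. After normexp correction 3 rose and 1 fell at 3 months, where 505 and 843 of all features did. Nr1i3, the xenobiotic receptor CAR, read 3.60 and 3.51 on ND at 3 months, 3.83 and 4.34 on ND at 9 months, 5.12 and 4.91 on HFD at 3 months, and 4.77 and 4.83 on HFD at 9 months. All HFD animals were above all ND animals, by 1.46 ± 0.22 at 3 months and 1.09 ± 0.20 over both (limma adjusted p = 0.0253 and 0.0119). The second probe of Nr1i3 gave 0.84 ± 0.26 and 0.43 ± 0.23 and did not pass, and at 3 months the call ended without any 1 of the 4 arrays of that time (adjusted p = 0.0525 to 0.215). Gpbar1, the membrane bile acid receptor TGR5, was lower by -2.38 ± 0.44 over both (limma adjusted p = 0.012). Its values were -0.78 and -0.72, then -1.03 and -0.65 on ND at 3 and 9 months, and -4.48 and -2.49, then -3.33 and -2.40 on HFD, with no overlap and with HFD 3 months replicate 1 not well above background. After normexp correction its difference was -1.23 and in the authors' deposited value table -1.09, both past the threshold.

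Fgfr4, the hepatocyte receptor for the intestinal signal that represses bile acid synthesis, was lower by -0.63 ± 0.12 over both durations (limma adjusted p = 0.0125). Its values were 3.49 and 3.5, then 3.63 and 3.61 on ND, and 2.98 and 2.79, then 3.06 and 2.89 on HFD, without overlap. Its second probe gave 0.01 ± 0.38 at 3 months, -0.93 ± 0.38 at 9 months and -0.46 ± 0.30 over both, and did not pass. The call of Fgfr4 ended without ND 3 months replicate 2 and with the 50th percentile (limma adjusted p = 0.0819 for the latter). Hnf4a, a central transcription factor of the hepatocyte, was lower by -0.64 ± 0.13 (limma adjusted p = 0.0155). It read 7.87 and 7.85, then 8.17 and 8.17 on ND, and 7.48 and 7.15, then 7.41 and 7.48 on HFD, without overlap. Like that of Hsd3b7, its call rested on the scaling, at -0.38 under quantile normalization (adjusted p = 0.0902) and -0.32 after normexp correction (0.124) and at -0.64 with no filter (0.0669), and it ended without either ND 3 months replicate (0.0552 and 0.053).

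Onecut1, another liver transcription factor, was lower by -1.76 ± 0.49 (limma adjusted p = 0.042) with HFD 9 months replicate 2 not well above background. It was -1.09 after normexp correction, -0.97 in the authors' deposited value table and -1.72 under quantile normalization, where its call ended (0.0608). Ppargc1a, a coactivator of metabolic genes, was higher by 0.70 ± 0.20 (adjusted p = 0.0454) on the probe used and by 1.24 ± 0.33 on its second probe (adjusted p = 0.0401). With 1 array left out Onecut1 kept its call in 2 of 8 cases (adjusted p up to 0.113) and Ppargc1a in 0 of 8 (up to 0.12). The third regulator that rose was Nr1i2, the xenobiotic receptor PXR, at 0.55 ± 0.16 (adjusted p = 0.0487), named here because its count is small; its call ended under quantile normalization (0.0536), with the 50th percentile (0.183) and without HFD 9 months replicate 2 (0.0619). Chosen for their roles with their values known, Rxra, the partner of FXR, differed by 0.07 ± 0.13, and Nr5a2, the activator LRH-1 that SHP blocks, by 0.11 ± 0.17.

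Of 7 detoxification genes 4 were tested, and 1 passed at 9 months and over both durations, where 8.28% and 22.1% of all features did. Without HFD 9 months replicate 2 the count at 9 months was 0. Cyp2b10, a target of CAR, rose by 4.34 ± 0.86 at 9 months and by 3.82 ± 0.60 over both (limma adjusted p = 0.0353 and 0.00666). Its values were 4.27 and 2.73, then 3.09 and 0.63 on ND, and 6.93 and 6.67, then 6.59 and 5.82 on HFD, without overlap. The pooled call of Cyp2b10 held without each array in turn, and that at 9 months held only without ND 9 months replicate 1 (the adjusted p ran up to 0.0974 otherwise).

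**Figure D4:**
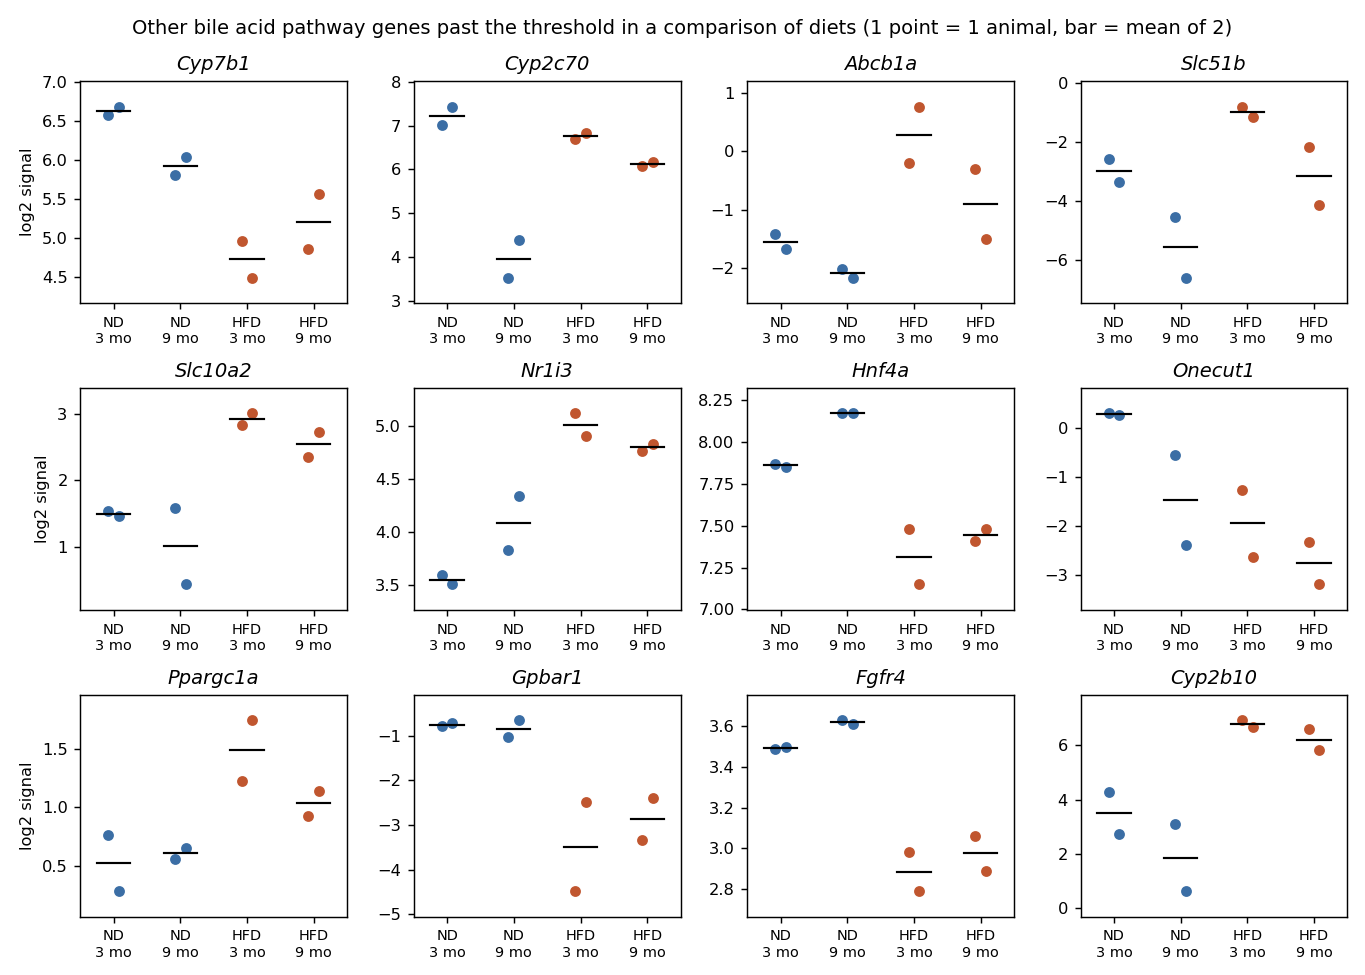
Log2 signal relative to the array's 75th percentile (vertical axis, a separate range for each gene) in the 4 groups (horizontal axis) for the 12 other pathway genes named by rule; each point is 1 animal and each bar the mean of 2. In Cyp2c70 the 2 ND 9 months animals (3.54 and 4.40) lie apart, and in Cyp7b1, Slc10a2, Nr1i3, Hnf4a, Ppargc1a, Gpbar1, Fgfr4 and Cyp2b10 the diets do not overlap. Of all 20165 features, 2320 were higher and 2816 lower on HFD without overlap. The 12 genes were chosen for passing the threshold, which favours such separation.

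Markers of the cells in a liver piece were read beside these values. All 10 hepatocyte markers were well above background on all arrays, and their summed linear level, in units of the 75th percentile, was 5080 to 5940 on ND at 3 months, 4840 to 5210 on ND at 9 months, 3130 to 3590 on HFD at 3 months and 3570 to 5290 on HFD at 9 months. Their median difference between diets was -0.60 at 3 months, -0.26 at 9 months and -0.51 over both, with 0, 1 and 2 of 10 called lower (3.67%, 4.73% and 11.8% of all features were). The medians were -0.22, -0.11 and -0.16 under quantile normalization. Without HFD 9 months replicate 2 they were -0.60, -0.55 and -0.64. All 10 hepatocyte markers were then below 0 at 9 months, against 7 as reported. The number called lower also changed without that array at 3 months and over both. Stellate cell markers (4 of 5 tested) summed to 1.76 to 3.81 on ND and 6.33 to 12.4 on HFD. Their median difference between diets was 1.43 at 3 months, 1.93 at 9 months and 1.68 over both. Of these 4, 2, 2 and 4 were called higher and 0 lower, where 1.51%, 3.56% and 10.3% of all features were higher. With the 50th percentile 2 were called higher over both, as 937 of all 20165 features were. In macrophage markers (5 of 6) the sums were 42.4 to 44.3 and 91 to 284 on ND and 46.6 to 60.5 and 52.7 to 107 on HFD, at 3 and 9 months. The brightest markers weigh most in such sums. Taken singly, the macrophage markers differed between diets by -0.16 to 1.72 in log2 at 3 months (median 1.54). At 9 months they differed by -2.58 to 0.78 (median -0.04). Endothelial markers (5 of 5) summed to 34.4 to 51.9 on ND and 45.6 to 59.1 on HFD. Taken singly, they differed between diets by -1.17 to 2.28 at 3 months (median 0.56). At 9 months they differed by -0.6 to 1.47 (median 0.77). Of 8 cholangiocyte markers 5 were tested and 3 were well above background on all arrays, with sums of 1.92 to 2.39 on ND and 1.59 to 2.71 on HFD. Taken singly, those 5 differed between diets by -0.75 to 1.29 at 3 months and by -1.79 to 1.3 at 9 months. In pieces of whole liver, fewer hepatocytes and less RNA of a gene per hepatocyte cannot be told apart. The part of cell composition in the differences of Cyp8b1, Baat and Hsd3b7 was not tested.

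For Cyp7a1, Cyp8b1 and Nr0b2 the features closest in pattern were found among 10969 with a gene symbol and signal well above background on all arrays, by the root mean square difference of mean-centred log2 values over the 8 arrays. The closest to Cyp7a1 was Ddit4, at 0.305, followed by Setd1a and Arl4d, both at 0.455. Ddit4, a stress-induced inhibitor of mTORC1, read 1.93 and 2.54, then 1.86 and 3.52 on ND at 3 and 9 months, and 1.45 and 3.25, then 2.37 and 1.56 on HFD, and in each of the 4 groups the animal with more Cyp7a1 also had more Ddit4. The closest to Cyp8b1 were Got1, a cytosolic aspartate aminotransferase (0.388), Olfr1252 (0.427) and Abtb2 (0.43). Those closest to Nr0b2 were Iyd (0.184), Tmem123 (0.215) and Prdx1, a peroxiredoxin (0.223). They share the arrays and their scaling with the genes they resemble, and were picked for the likeness from many candidates.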

How the data were processed

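Each of the 8 arrays is 1 mouse. Per the file headers and the submitters' processing notes, the deposited array files come from Agilent Feature Extraction 10.7.1.1: signals are intensities, the processed one background-subtracted by the software and not scaled between arrays, and the flags are other values deposited by the authors, 0 or 1 per spot. The value table deposited by the authors is on a log2 scale, orders the spots of every array exactly like the median signal (Spearman's rho 1, checked here) and has column medians of 7.14; how it was made is not given in the sources used here, and it served as an alternative.

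The 3671 control spots were left out and the other 59305 spots were read, without those flagged as outliers on an array. From the log2 of the processed signal (pseudocount 0) the log2 75th percentile of its array was subtracted, and spots of a probe were averaged. A probe was kept when well above background (on a share of at least 0.5 of its spots) on both arrays of 1 group or more (25801 probes), and each gene was represented by its brightest kept probe (20165 features, 12885 with a symbol). Symbols come from a RefSeq table of assembly GRCm38.p6, and 26056 probes matched 19752 symbols. Limma 3.58.1 in R 4.3.3 (data.table, version 1.17.8) fitted the 4 group means (4 residual degrees of freedom, prior 2.33), and diet over both durations with duration as covariate (5, prior 2.4), with Benjamini-Hochberg adjustment. The method was tested on simulated data. Figures used Python 3.11.15 with matplotlib 3.10.9, numpy 2.4.6 and pandas 2.3.3.

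The genes, gene lists and tests were chosen with earlier results of these data known. The text names the 10 genes, up to 6 called genes of each other list by smallest p, and the 3 features closest in pattern to each of Cyp7a1, Cyp8b1 and Nr0b2. Ch25h, Slc51a, Vdr, Fgf15, Sult2a1 and Sult2a2 were not kept by the filter, and Ugt1a1 was not analysed here. Alternatives were quantile normalization, normexp correction (offset 50, on median signals), the authors' table, 3 other treatments of dim probes, the 50th percentile, the mean of all kept probes, moderation with trend and robust, array weights, the 4 arrays compared alone, a replicate block and leaving out each array. The correlations between same-numbered animals' deviations from their group means were -0.0181 to 0.137. These values give no sign of a pairing by number but cannot exclude it. In every group the replicate number went with the column of the slide, so the replicate block is also a block by column.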

Additional observations from a re-analysis of the deposited data

How the results depend on the processing

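Over 20 alternatives, 1180 recomputed differences of the 10 genes changed sign in 67 cases, 0 of them in a comparison that passed with or without the alternative. Cyp8b1 at 9 months passed in 14 of 20 alternatives (-2.59 to -1.82, adjusted p = 0.0144 to 0.175), Baat in 11 of 20 (-2.17 to -1.13, adjusted p = 0.0101 to 0.163) and Hsd3b7 over both durations in 12 of 19 (-0.65 to -0.26, adjusted p = 0.00883 to 0.128). The count of the 10 genes called lower at 3 months, 0 as reported, was 1 with probes above background on all arrays, trend and robust moderation, array weights and the 4 arrays compared alone. In that order 635 of 15934 features, then 869, 2421 and 1618 of 20165, were called lower. The count at 9 months, 2 as reported, was 0 with no filter on dim probes, array weights and the 4 arrays compared alone. In that order 190 of 37084 features, then 209 and 0 of 20165, were called lower. The count over both durations, 1 as reported, was 0 under quantile normalization, normexp correction, the authors' value table and no filter, and 2 with trend and robust moderation. In that order 2211, 2212 and 2151 of 20165 features, 1325 of 37084 and 2463 of 20165 were called lower. With the 50th percentile the count over both was 1, but the gene was Baat (-1.05, limma adjusted p = 0.0445) in place of Hsd3b7. With 1 array left out these counts ran from 0 to 1 at 3 months, 0 to 2 at 9 months, 0 to 2 over both durations and 0 to 1 for 9 versus 3 months on HFD. No gene of the 10 was called higher under any alternative. No filter moved the median of all features to 0.254, 0.296 and 0.256 at 3 months, 9 months and over both. The cause of these changes was not tested.

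Counts over all features moved by more than 1.5 times as follows. At 3 months 1045 became 68 with no filter, 3972 with array weights, 2780 from the 4 arrays alone, 0 without either ND 3 months array (3030 and 2514 at an unadjusted p under 0.05 by limma), 2232 without either HFD 9 months array and 485 when HFD 3 months replicate 1 was left out. At 9 months 1670 became 274 with no filter, 276 with array weights, 0 by limma from the 4 arrays alone (3907 at an unadjusted p under 0.05), 487 without either ND 3 months array, and 867 and 365 without ND 9 months replicate 1 and 2. Over both durations 4453 became 2386 with no filter, 2073 and 1840 without ND 3 months replicate 1 and 2, 2376 without ND 9 months replicate 2 and 2795 without HFD 3 months replicate 1. From 3 to 9 months on ND 209 became 5 with no filter, 324 with trend and robust moderation, 1409 with array weights and 137 from the 4 arrays alone, and ran from 0 to 340 with 1 array left out. On HFD 2 became 61 under quantile normalization, 67 after normexp correction, 70 in the authors' value table and 1933 without HFD 9 months replicate 1, and ran from 0 to 25 under the other alternatives. The interaction gave 0 to 3. With a replicate block the counts of the 10 genes were as reported (Cyp8b1 adjusted p = 0.049, Baat 0.0449, Hsd3b7 0.0264), and 209 features called over time on ND became 56. Slide as a block was not run, since it cannot be fitted beside diet and changes nothing within a diet.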
